A study of Homo sapiens with 9 samples.

Results

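Well-known long non-coding RNAs of human cancer cells were followed in A549, an established line from human lung adenocarcinoma. The set held 10 genes, chosen by name with earlier results of these data known: MALAT1, NEAT1, H19, UCA1, GAS5, SNHG1, PVT1, MIR22HG, MIR31HG and MIR17HG. Each was found by its symbol, and each matched 1 Ensembl gene ID, so 10 of the 57905 genes in the count table were members. Poly(A)-selected RNA was sequenced in 9 libraries, 3 in each of 3 groups. Titles call the control cells plko while their treatment is given as scrambled, which does not settle whether their vector carried a scrambled hairpin. The second group carried a short hairpin RNA (shRNA, which directs the destruction of a matching transcript) against AKR1B1, the aldose reductase that turns glucose into sorbitol. The third carried an shRNA against SORD, the sorbitol dehydrogenase that turns sorbitol into fructose. All groups were A549 cells in serum-containing medium, and no further allele or agent is named. The labels give 1 hairpin name per target and do not say whether the replicates of a group, described as biological, were separate transductions or separate dishes. Effects of 1 hairpin sequence or of 1 control population therefore cannot be told apart from the knockdown, and the p-values below measure only how far these libraries spread. In bulk RNA, fewer cells with a transcript and less of it per cell cannot be told apart.

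Long non-coding RNAs are transcripts that encode no long protein, and many, though not all, are spliced and processed much like messenger RNAs. MALAT1 collects in nuclear speckles, the stores of splicing factors, and NEAT1 builds paraspeckles, nuclear bodies that hold RNA-binding proteins. H19 is transcribed from the maternal copy of an imprinted locus shared with IGF2 and carries miR-675 in an exon. GAS5 and SNHG1 are host genes, whose introns are processed into small nucleolar RNAs (snoRNAs, guides for the modification of ribosomal RNA) and whose spliced RNAs are degraded during translation. PVT1 lies beside the MYC oncogene. MIR22HG, MIR31HG and MIR17HG are the primary transcripts or hosts of microRNAs, and UCA1 was first described in bladder cancer.

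The hosts matter for the short RNAs cut out of them, so the mature sequences of the main arms are shown here, 5′ to 3′, as RefSeq lists them on GRCh38.p14. Capitals mark the seed, bases 2 to 8, through which a microRNA pairs with its targets. MIR22HG carries the first, MIR31HG the second, H19 the third, and MIR17HG the other 6.
hsa-miR-22-3p: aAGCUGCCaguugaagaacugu
hsa-miR-31-5p: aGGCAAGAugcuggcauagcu
hsa-miR-675-5p: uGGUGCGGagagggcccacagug
hsa-miR-17-5p: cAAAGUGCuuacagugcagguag
hsa-miR-20a-5p: uAAAGUGCuuauagugcagguag
hsa-miR-18a-5p: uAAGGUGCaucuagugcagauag
hsa-miR-19a-3p: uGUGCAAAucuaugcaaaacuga
hsa-miR-19b-3p: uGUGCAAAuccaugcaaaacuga
hsa-miR-92a-3p: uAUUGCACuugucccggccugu
The first lies at chr17:1713914-1713935 on the minus strand, the second at chr9:21512158-21512178 on the minus strand, and miR-675-5p at chr11:1996800-1996822 on the minus strand. The MIR17HG cluster runs along the plus strand of chromosome 13 from miR-17-5p at chr13:91350618-91350640 to miR-92a-3p at chr13:91351361-91351382. In this set miR-17-5p and miR-20a-5p share the seed AAAGUGC, and miR-19a-3p and miR-19b-3p share GUGCAAA. The counts below are of the host genes only. Mature microRNAs were not measured, and neither were the snoRNAs, which are not polyadenylated.

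Total counts ran from 32436524 to 43044456 per library. Levels are CPM, counts per 1000000 counts of the library after TMM scaling. The targeted genes fell as labelled: AKR1B1 from 1394 to 1456 CPM in control libraries to 146 to 167 with shAKR1B1, and SORD from 41.7 to 44.1 CPM to 8.17 to 8.99 with shSORD. Each knockdown also lowered the other enzyme, AKR1B1 to 945 to 1135 CPM with shSORD and SORD to 30.2 to 31.0 CPM with shAKR1B1. All 7 epithelial markers were detected, with a summed level of 8684 to 8906 CPM in control, 12310 to 12940 with shAKR1B1 and 10750 to 12800 with shSORD. Of 8 alveolar type II markers 4 never passed 10 counts, and the surfactant gene SFTPB was at 0 in every library, while the lipid transporter gene ABCA3 was at 55.2 ± 0.369 CPM in control, 50.1 ± 1.68 with shAKR1B1 (adjusted p = 0.125) and 65.9 ± 7.54 with shSORD (adjusted p = 0.00803). Of 6 leukocyte markers 5 never passed 10 counts, PTPRC and CD3E among them, nor did any of the 4 matched endothelial markers. The remaining leukocyte marker, CD14, fell from 8.81 ± 0.831 CPM to 4.96 ± 0.42 and 3.39 ± 0.762 (log2 fold changes -0.83 and -1.38, adjusted p = 7.75e-05 and 9.32e-07). The 7 fibroblast markers summed to 14.8 to 16.4 CPM in control, 8.81 to 10.3 with shAKR1B1 and 34.6 to 55.6 with shSORD. Of the 5 that were tested, all 5 rose with shSORD at an adjusted p under 0.05 (median log2 fold change 3.66), against 27.5% of all genes tested. With shAKR1B1 1 rose and 1 fell (median -0.75), against 27.8% and 29.6%.

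Of the 10 members, 9 passed the filter on low counts and were tested, and UCA1 did not. Earlier results of these data were known when the members were chosen. The shares of all genes are therefore printed beside the counts of members as a description only. With shAKR1B1, 8 of the 9 were called at an adjusted p under 0.05, against 57.4% of the 16916 genes tested in that comparison. MALAT1, NEAT1, H19 and GAS5 rose (27.8% of all genes tested rose), and SNHG1, PVT1, MIR22HG and MIR31HG fell (29.6% fell). With shSORD, 6 of the 9 were called, against 56.5% of all genes tested. The same 4 rose (27.5% of all genes rose), and SNHG1 and MIR22HG fell (29.0% fell). Both comparisons use the same 3 control libraries, so their values are given side by side. Over the 9 tested members the median log2 fold change was 0.25 with shAKR1B1 and 0.15 with shSORD, and over all genes tested it was -0.002 in both.

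**Figure D1:**
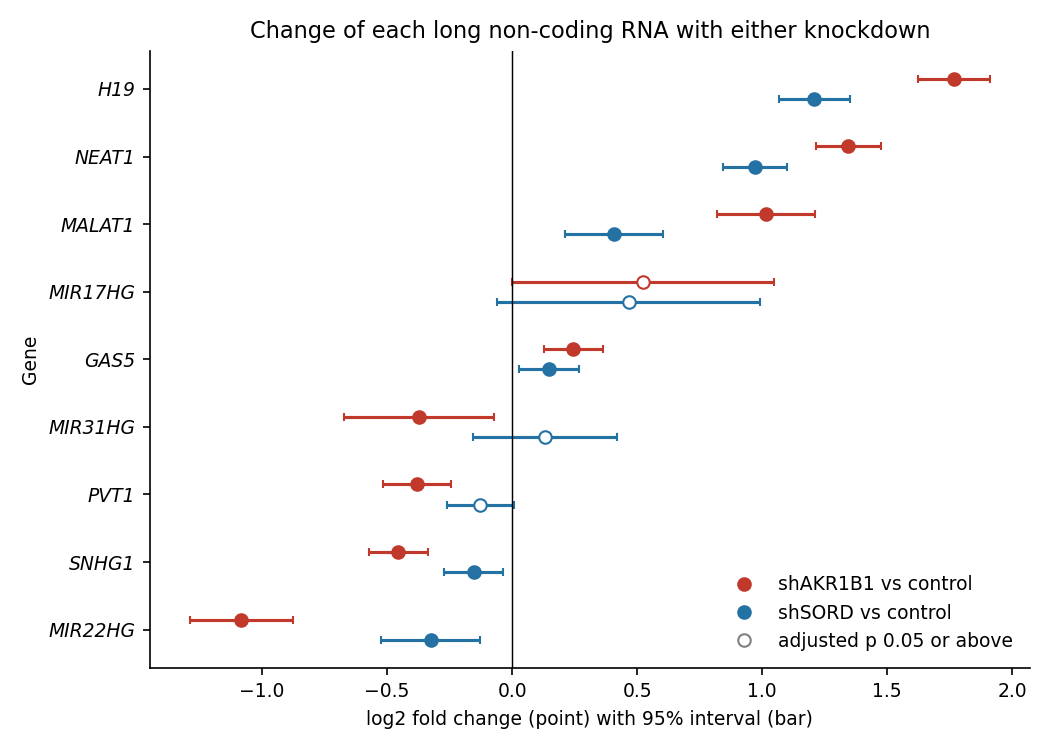
Log2 fold change against control of the 9 tested long non-coding RNAs (points) with its 95% interval (bars), in shAKR1B1 cells (red) and shSORD cells (blue). Open points are those with an adjusted p of 0.05 or above. H19, NEAT1 and MALAT1 lie furthest to the right with shAKR1B1, at 1.77, 1.34 and 1.01, and MIR22HG furthest to the left, at -1.08.

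The 3 largest rises among the members were of H19, NEAT1 and MALAT1. Together the 10 members took 10.1 to 10.8% of the counts of long non-coding genes in control libraries, 16.2 to 16.6% with shAKR1B1 and 13.2 to 14.0% with shSORD, with no overlap between groups. As a share of all counts they took 0.074 to 0.079% in control, 0.140 to 0.148% with shAKR1B1 and 0.112 to 0.127% with shSORD. MALAT1 and NEAT1 alone took 0.042 to 0.045%, 0.104 to 0.112% and 0.076 to 0.090% of all counts in the same groups. Long non-coding genes as a class rose more often than they fell. With shAKR1B1, 673 of 2122 tested rose (31.7%, against 27.8% of all genes tested) and 249 fell (11.7%, against 29.6%). With shSORD, 661 rose (31.2%, against 27.5%) and 199 fell (9.38%, against 29.0%). The class differed from all genes more in its called falls than in its called rises. Its median log2 fold changes were 0.24 with shAKR1B1 and 0.25 with shSORD. Of 13429 protein-coding genes, 3737 rose and 4553 fell with shAKR1B1 (median -0.04) and 3668 rose and 4494 fell with shSORD (median -0.04). The typical long non-coding gene was weakly expressed, with a median of 32.1 counts per library against 998 for protein-coding genes. Within the class, H19 with shAKR1B1 stood above 95.4% of the long non-coding genes tested, NEAT1 above 90.6% and MALAT1 above 84.0%, GAS5 was near the middle with 50.1% below it, and MIR22HG was near the bottom with 3.77% below it. With shSORD, H19 stood above 89.3% of them and NEAT1 above 83.8%. MALAT1 and GAS5 were nearer the middle there, with 59.2% and 43.4% below them, and MIR22HG had 16.4% below it.

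**Figure D2:**
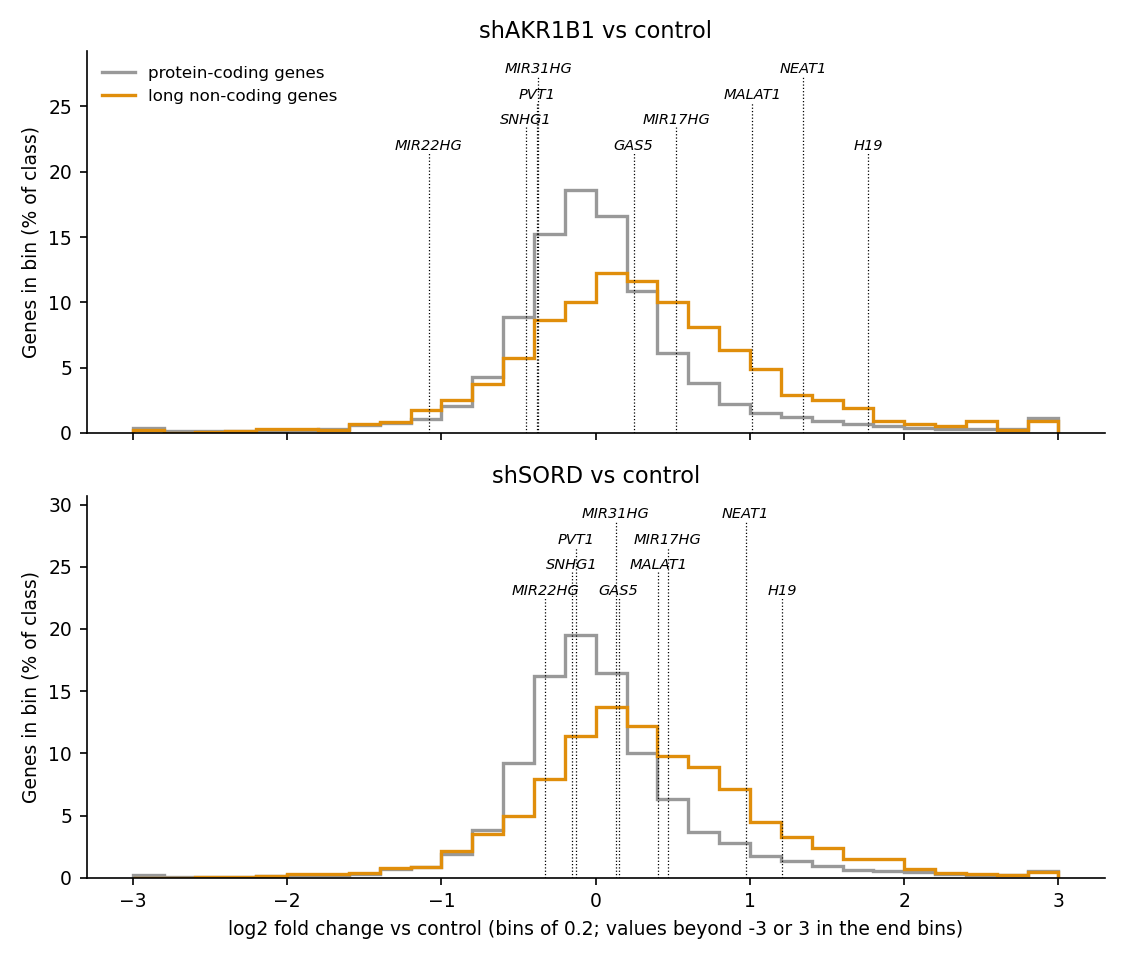
Share of genes (% of the class, in bins of 0.2) by log2 fold change against control, for 2122 long non-coding genes (orange) and 13429 protein-coding genes (grey), with shAKR1B1 (top) and shSORD (bottom). Dotted lines mark the 9 tested members, and the orange outline sits to the right of the grey one in both panels, with medians of 0.24 and 0.25 against -0.04 and -0.04.

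MALAT1 (ENSG00000251562) was measured at 123, 138 and 141 CPM in the control libraries, at 278, 270.0 and 265 CPM with shAKR1B1, and at 200.4, 146 and 187 CPM with shSORD. Every shAKR1B1 library lay above every other library, and the shSORD libraries lay between the groups, 1 of them close to the highest control. The mean rose from 134 ± 9.56 (SD, n = 3) to 271 ± 6.42 CPM with shAKR1B1, 2.02-fold (log2 fold change 1.01, SE 0.0916, adjusted p = 2.64e-07). With shSORD it was 178 ± 28.4 CPM, 1.33-fold above control (log2 fold change 0.41, SE 0.0912, adjusted p = 0.0015). Its level depends on how the library was made, because the mature MALAT1 has no added poly(A) tail. Its 3′ end is protected by a triple helix of U-rich stretches with an A-rich tract that is part of the gene, and oligo(dT) can capture it through that tract. The stretch from base 8227 to 8355 of transcript ENST00000534336.1 (GENCODE 29) shows these parts, with the U-rich stretches (written with T) and the A-rich tract of 19 bases in capitals.
MALAT1 3′ end: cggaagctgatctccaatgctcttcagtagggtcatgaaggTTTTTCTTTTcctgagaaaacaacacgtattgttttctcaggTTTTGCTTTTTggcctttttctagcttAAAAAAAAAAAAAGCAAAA
Histone transcripts of the replication-dependent kind also lack a tail, and the 11 listed genes summed to 52.7 to 55.2 CPM in control, 54.6 to 60.0 with shAKR1B1 and 61.0 to 62.1 with shSORD. Of the 9 tested, 2 rose and 1 fell with shAKR1B1, and 3 rose and 1 fell with shSORD. Over all genes tested, 27.8% and 27.5% rose and 29.6% and 29.0% fell. Any part of the missing tail in the rise of MALAT1 was not tested.

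NEAT1 (ENSG00000245532) had the highest count of the members. It was at 302, 326 and 324 CPM in control libraries, at 802, 843 and 774 CPM with shAKR1B1, and at 678, 594 and 597 CPM with shSORD. The 3 groups did not overlap. The mean rose from 318 ± 13.2 to 806 ± 34.6 CPM with shAKR1B1, 2.54-fold (log2 fold change 1.34, SE 0.0607, adjusted p = 1.58e-10), and to 623 ± 47.4 CPM with shSORD, 1.96-fold (log2 fold change 0.97, SE 0.0603, adjusted p = 7.37e-09). A gene-level count cannot separate its short isoform, which is polyadenylated, from the long one that forms the core of the paraspeckle. NEAT1 lies next to MALAT1 on chromosome 11, yet the ratio between them was not constant: NEAT1 CPM over MALAT1 CPM was 2.37 ± 0.0817 in control, 2.98 ± 0.126 with shAKR1B1 and 3.55 ± 0.466 with shSORD. Each group's ratios lay clear of those of the other groups, and the widest spread was in shSORD, from 3.19 to 4.08.

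**Figure D3:**
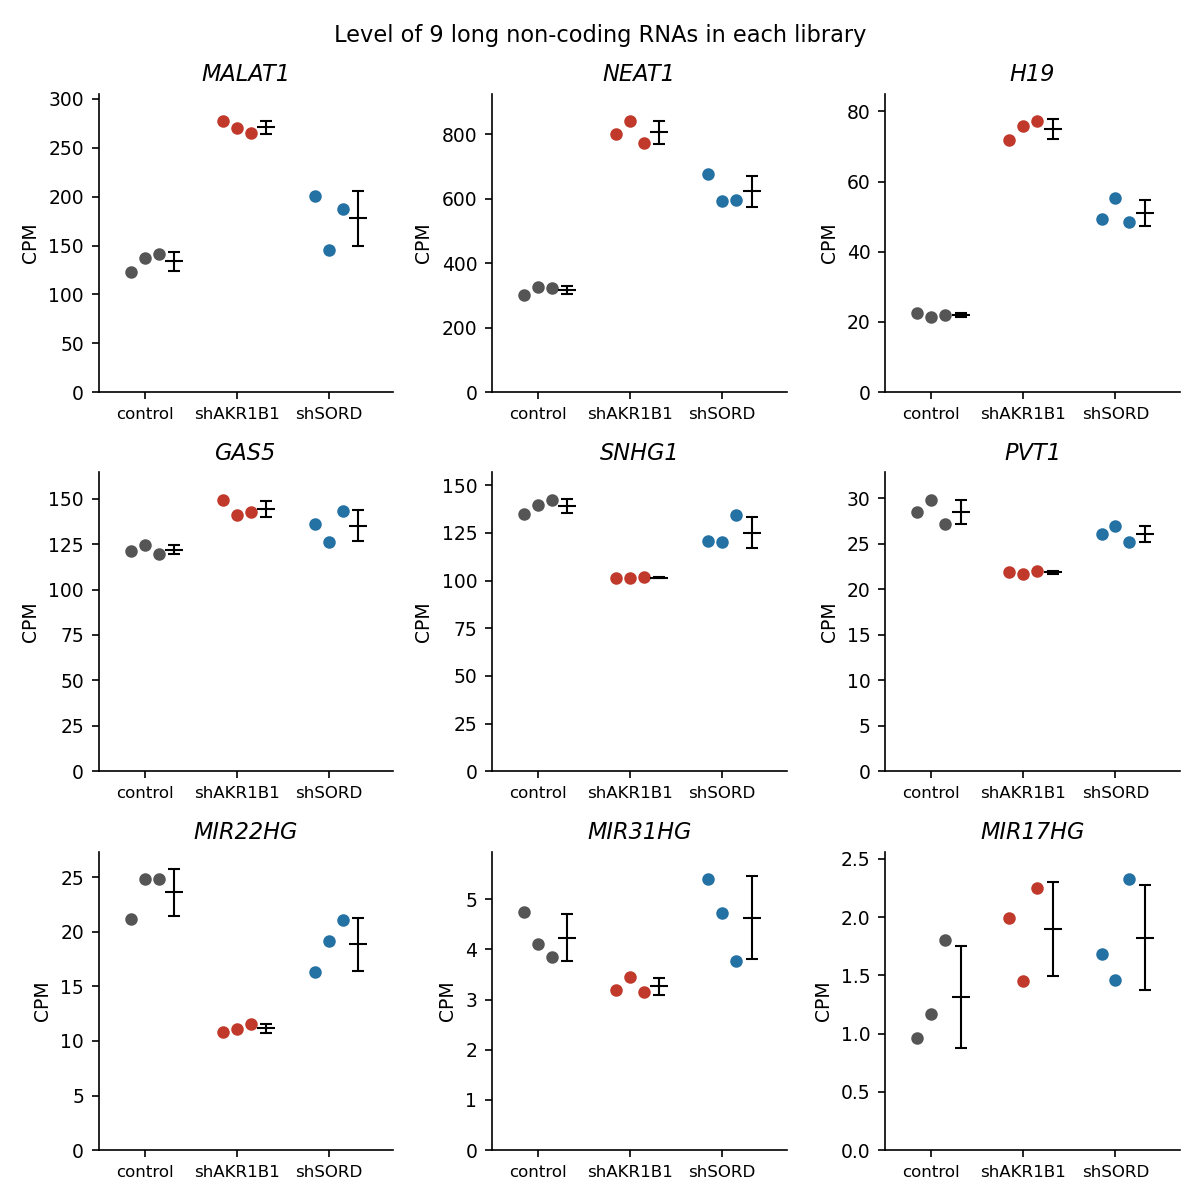
Level in CPM (linear axes from 0) of the 9 tested long non-coding RNAs in each library: 3 control (grey), 3 shAKR1B1 (red) and 3 shSORD (blue). Black bars give the group mean ± SD. In NEAT1 and H19 the 3 groups stand in the order control, shSORD, shAKR1B1 without overlap, and in MIR22HG, SNHG1 and PVT1 in the opposite order.

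Genes for proteins of paraspeckles and nuclear speckles were counted beside these RNAs. With shAKR1B1, of 17 paraspeckle protein genes tested 1 rose and 11 fell (their median log2 fold change was -0.26), and 5 were not called. With shSORD 0 rose, 11 fell and 6 were not called (median -0.33). Of all genes tested, 29.6% and 29.0% fell. RBM14, needed to assemble paraspeckles, went from 120 ± 6.93 CPM to 53.0 ± 5.82 with shAKR1B1 and 57.4 ± 1.87 with shSORD (log2 fold changes -1.17 and -1.06, adjusted p = 5.87e-09 and 2.35e-08). PSPC1, a core paraspeckle protein, fell by 0.77 and 0.63 on the log2 scale, and RBM12 by 0.81 and 0.82. Of 20 nuclear speckle protein genes, 6 rose and 10 fell with shAKR1B1 and 5 rose and 10 fell with shSORD (medians -0.14 and -0.16). Among all genes tested, 27.8% and 27.5% rose. PNISR and LUC7L3, arginine-serine-rich proteins of splicing, rose (log2 fold changes 0.70 and 0.54 with shAKR1B1, 0.69 and 0.54 with shSORD). SON, a scaffold of speckles, fell by 0.54 with shAKR1B1 and 0.20 with shSORD, and RNPS1, part of the exon junction complex, by 0.55 and 0.49.

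MALAT1 and NEAT1 rose in both knockdowns, and FRMD8, the nearest protein-coding gene on one side of the pair, did not. FRMD8 was at 33.2 ± 1.55 CPM in control and 32.2 ± 1.58 with shAKR1B1 (adjusted p = 0.645), and fell to 27.0 ± 2.09 with shSORD (log2 fold change -0.30, adjusted p = 0.00272). The RefSeq promoter window of the upstream MALAT1 start, 250 bases before to 50 bases after it, is printed here (GRCh38.p14, chr11:65497488-65497787, plus strand). Among the windows searched, it alone holds the core of an antioxidant response element. No window of NEAT1, UCA1 or PVT1 was searched. Capitals mark matches to TGACNNNGC, the core of the antioxidant response element.
MALAT1 promoter: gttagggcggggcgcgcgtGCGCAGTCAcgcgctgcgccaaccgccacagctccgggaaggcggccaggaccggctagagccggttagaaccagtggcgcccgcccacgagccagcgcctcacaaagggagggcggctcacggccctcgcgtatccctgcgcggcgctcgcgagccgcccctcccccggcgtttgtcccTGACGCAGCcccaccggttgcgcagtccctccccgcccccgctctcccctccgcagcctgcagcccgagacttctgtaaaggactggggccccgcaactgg
The core occurs on both strands of the window, from 231 to 223 and from 51 to 43 bases before the start, the latter over a TGACG, and 13.4% of 35116 RefSeq promoter windows hold at least 1. The window of the other MALAT1 start and those of H19 and GAS5, which also rose in both knockdowns, hold none. Such a match describes letters and is no evidence of a bound factor.

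H19 (ENSG00000130600) rose by the largest factor of the members. It was at 22.7, 21.4 and 22.1 CPM in control libraries, at 71.9, 75.9 and 77.3 CPM with shAKR1B1 and at 49.2, 55.3 and 48.5 CPM with shSORD, and no 2 groups overlapped. The mean rose from 22.1 ± 0.624 to 75.0 ± 2.83 CPM with shAKR1B1, 3.40-fold (log2 fold change 1.77, SE 0.0672, adjusted p = 2.53e-11), and to 51.0 ± 3.74 CPM with shSORD, 2.31-fold (log2 fold change 1.21, SE 0.067, adjusted p = 2.18e-09). IGF2, the growth factor gene of the same imprinted domain that is expressed from the paternal copy, was barely transcribed, at 0.767 ± 0.184 CPM in control, 0.98 ± 0.27 with shAKR1B1 (adjusted p = 0.273) and 0.395 ± 0.158 with shSORD (log2 fold change -0.96, adjusted p = 0.0232). Its mean was 27.9 counts per library. The span of MRPL23, a mitochondrial ribosomal protein gene, covers H19 in the RefSeq annotation. MRPL23 fell with shAKR1B1 (63.1 ± 2.504 to 48.4 ± 3.69 CPM, log2 fold change -0.38, adjusted p = 0.00443) and was at 54.1 ± 9.57 CPM with shSORD (-0.22, adjusted p = 0.0697).

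Imprinted genes as a list moved in both directions. Of 17 tested, 6 rose and 4 fell with shAKR1B1, and 7 rose and 3 fell with shSORD (medians 0.12 and 0.14). Over all genes tested, 27.8% and 27.5% rose and 29.6% and 29.0% fell. KCNQ1OT1, the antisense non-coding RNA of the neighbouring imprinted domain on the same chromosome arm, rose from 4.29 ± 0.183 to 9.07 ± 0.659 and 8.18 ± 0.272 CPM (log2 fold changes 1.08 and 0.93). SLC22A18, an organic cation transporter of that domain, rose as well (1.22 and 0.87), and PHLDA2, a growth restrictor of the same domain, fell by 0.88 and 1.88. MEG3, an imprinted non-coding RNA from another chromosome, was at 6.62 ± 0.19 CPM in control, 7.60 ± 0.455 with shAKR1B1 and 27.0 ± 1.14 with shSORD (log2 fold changes 0.20 and 2.03), and was lower with shAKR1B1 than with shSORD (adjusted p = 3.06e-10).

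The snoRNA hosts GAS5 and SNHG1 moved in opposite directions. GAS5 (ENSG00000234741) was at 121, 125 and 120 CPM in control libraries, at 149, 141 and 143 CPM with shAKR1B1 and at 136, 126 and 143 CPM with shSORD. Both knockdown groups lay above the controls, the lowest shSORD library just above, and they overlapped each other. Its mean of 122 ± 2.51 CPM rose 1.19-fold with shAKR1B1 (log2 fold change 0.25, SE 0.056, adjusted p = 0.00169). The 1.11-fold rise with shSORD (0.15, SE 0.056, adjusted p = 0.0345) did not stay called without any 1 of the control libraries, replicates 1, 2 and 3 (adjusted p = 0.0992, 0.0604 and 0.0835), or without the filter on low counts (adjusted p = 0.0941). GAS5 overlaps ZBTB37 and GAS5-AS1 on the opposite strand, which held 656 to 820 and 16 to 35 counts per library, and the strand setting of the counting is not given in the sources used here.

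SNHG1 (ENSG00000255717) was at 135, 140 and 143 CPM in control libraries, at 101, 102 and 102 CPM with shAKR1B1 and at 121, 120 and 135 CPM with shSORD. The shAKR1B1 libraries lay within 1 CPM of each other and below all others, and the highest shSORD library nearly reached the lowest control. The mean fell from 139 ± 3.74 to 102 ± 0.224 CPM with shAKR1B1, 73.0% of the control level (log2 fold change -0.45, SE 0.0555, adjusted p = 6.01e-06). With shSORD it was 125 ± 8.19 CPM, 89.9% of the control level (log2 fold change -0.15, adjusted p = 0.0284). That fall lost its call with library totals as the only scaling (-0.09, adjusted p = 0.174), with at least 10 counts asked of every library (adjusted p = 0.107), in a fit of the 2 groups alone (adjusted p = 0.095), and without control replicate 2 or 3, shAKR1B1 replicate 2 or shSORD replicate 1 or 2 (adjusted p = 0.0584 to 0.137). GAS5 CPM over SNHG1 CPM went from 0.877 ± 0.0308 in control to 1.42 ± 0.0459 with shAKR1B1 and 1.08 ± 0.0428 with shSORD, and the ratios of the 3 groups did not overlap.

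Among snoRNA hosts, GAS5 belonged to the minority that rose. With shAKR1B1, of 25 tested 2 rose and 15 fell (their median log2 fold change was -0.35), against 27.8% and 29.6% of all genes tested. GAS5 and SNHG32 were the 2 that rose. With shSORD 5 rose and 9 fell (median -0.13), against 27.5% and 29.0% of all genes tested. SNHG26 fell from 4.82 ± 0.304 CPM to 1.78 ± 0.258 and 2.31 ± 0.299 (log2 fold changes -1.43 and -1.06), SNHG30 from 13.2 ± 0.327 to 5.63 ± 0.573 and 7.24 ± 0.449 (-1.22 and -0.86), SNHG17 from 64.5 ± 0.891 to 34.7 ± 1.88 and 37.0 ± 1.62 (-0.89 and -0.80), and SNHG15 from 30.9 ± 1.22 to 17.8 ± 0.703 and 17.3 ± 0.761 (-0.80 and -0.83).

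**Figure D4:**
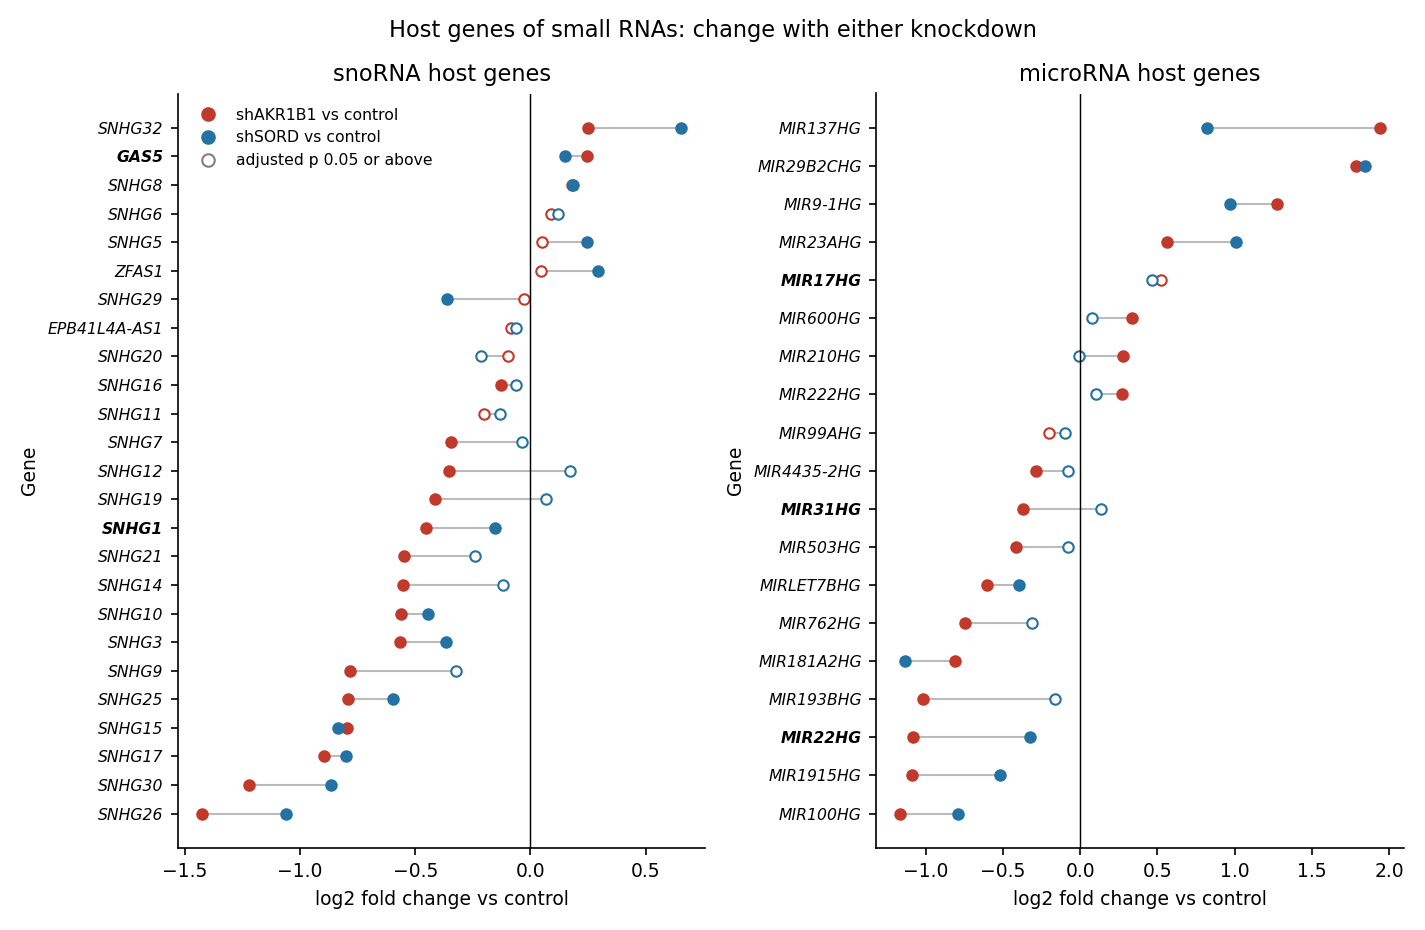
Log2 fold change against control of 25 snoRNA host genes (left) and 19 microRNA host genes (right) with shAKR1B1 (red) and shSORD (blue), a grey line joining the 2 values of a gene. Open points have an adjusted p of 0.05 or above and members are in bold. On the left, 15 of the red points are called falls and 2 are called rises.

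Spliced host RNAs such as GAS5 and SNHG1 are known substrates of nonsense-mediated decay, a surveillance pathway that destroys translated RNAs with an early stop codon. Of 13 factors of that pathway tested, 0 rose and 8 fell with shAKR1B1, and 0 rose and 7 fell with shSORD (medians -0.17 and -0.16). Over all genes tested, 27.8% rose and 29.6% fell with shAKR1B1, and 27.5% rose and 29.0% fell with shSORD. EIF4A3, the anchor of the exon junction complex, went from 187 ± 5.11 CPM to 122 ± 4.25 and 139.5 ± 8.09 (log2 fold changes -0.61 and -0.42). CASC3 of the same complex fell by 0.36 and 0.27, UPF3A by 0.32 and 0.16, and SMG8 by 0.28 and 0.16. The ribosomal protein genes, which share with these hosts a 5′ terminal oligopyrimidine start, were mostly not called: of 78 tested, 6 rose and 17 fell with shAKR1B1 and 9 rose and 19 fell with shSORD (medians -0.03 and -0.05). RPS15 fell from 332 ± 10.7 to 235 ± 11.9 and 258 ± 46.3 CPM.

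The SNHG1 promoter window is printed beside its fall (GRCh38.p14, chr11:62855836-62856135, minus strand). Capitals mark TTTCGCGC, the E2F motif searched, and TATAAA on the other strand.
SNHG1 promoter: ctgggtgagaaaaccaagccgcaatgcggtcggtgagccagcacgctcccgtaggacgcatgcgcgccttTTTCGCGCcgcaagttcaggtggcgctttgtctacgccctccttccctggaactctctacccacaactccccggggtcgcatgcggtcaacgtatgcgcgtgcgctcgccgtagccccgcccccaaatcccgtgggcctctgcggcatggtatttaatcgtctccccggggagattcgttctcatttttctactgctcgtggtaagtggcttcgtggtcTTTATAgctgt
The E2F letters lie from 180 to 173 bases before the start, and 0.52% of the 35116 windows hold them. E2F1 went from 74.3 ± 1.34 CPM to 42.7 ± 2.31 and 44.8 ± 4.22 (log2 fold changes -0.80 and -0.73), and E2F8 from 32.5 ± 2.45 to 18.1 ± 0.233 and 19.6 ± 1.83 (-0.84 and -0.73). Their list of 21 MYC and E2F factors moved in both directions. With shAKR1B1 8 rose and 9 fell (27.8% and 29.6% of all genes tested did), and with shSORD 7 rose and 9 fell (27.5% and 29.0%). Binding was not measured, and any part of E2F factors in the fall of SNHG1 was not tested. The neighbours of SNHG1 fell too. WDR74, a ribosome biogenesis factor, went from 50.4 ± 1.55 CPM to 33.6 ± 0.236 and 35.2 ± 2.41 (log2 fold changes -0.59 and -0.52, adjusted p = 1.64e-06 and 6.57e-06). SLC3A2, the heavy chain of amino acid transporters, fell with shAKR1B1 from 777 ± 3.92 to 488 ± 35.9 CPM (-0.67, adjusted p = 2.38e-06) and was at 751 ± 88.2 CPM with shSORD (-0.05, adjusted p = 0.605).

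PVT1 (ENSG00000249859) was at 28.4, 29.8 and 27.2 CPM in control libraries, at 21.9, 21.7 and 22.0 CPM with shAKR1B1, and at 26.1, 27.0 and 25.2 CPM with shSORD. The groups did not overlap, which was so for 69.2% of all genes tested with shAKR1B1 and for 60.1% with shSORD. The mean fell from 28.5 ± 1.34 to 21.9 ± 0.153 CPM with shAKR1B1, 76.8% of the control level (log2 fold change -0.38, SE 0.0635, adjusted p = 0.00012). With shSORD it was 26.1 ± 0.879 CPM (log2 fold change -0.13, 95% interval -0.26 to 0.0069, adjusted p = 0.0977). MYC, its neighbour, fell in both: from 150.1 ± 4.33 to 97.3 ± 4.50 CPM with shAKR1B1 (-0.63, adjusted p = 2.97e-07) and to 93.7 ± 5.05 CPM with shSORD (-0.68, adjusted p = 1.6e-07). PVT1 CPM over MYC CPM went from 0.19 ± 0.0121 in control to 0.225 ± 0.00885 with shAKR1B1 and 0.279 ± 0.00569 with shSORD, without overlap. Of 21 genes of the MYC and E2F families and their partners, 8 rose and 9 fell with shAKR1B1 and 7 rose and 9 fell with shSORD (medians -0.10 and -0.13). Over all genes tested, 27.8% and 27.5% rose and 29.6% and 29.0% fell. MYCL rose from 1.16 ± 0.222 CPM to 4.52 ± 0.257 and 4.45 ± 0.858 (log2 fold changes 1.96 and 1.94).

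MIR22HG (ENSG00000186594) showed the largest fall of the members. It was at 21.1, 24.9 and 24.9 CPM in control libraries, at 10.8, 11.1 and 11.6 CPM with shAKR1B1 and at 16.3, 19.2 and 21.1 CPM with shSORD. All shAKR1B1 libraries were below all others, and the highest shSORD library was just under the lowest control. The mean fell from 23.6 ± 2.14 to 11.1 ± 0.391 CPM with shAKR1B1, 47.2% of the control level (log2 fold change -1.08, SE 0.0966, adjusted p = 2.35e-07), and to 18.9 ± 2.42 CPM with shSORD, 79.8% of control (-0.33, SE 0.0926, adjusted p = 0.00767). Without shSORD replicate 1 the latter was -0.22 with adjusted p = 0.0577. Its neighbour WDR81, which overlaps it on the opposite strand, was at 45.5 ± 1.44, 42.3 ± 0.925 and 45.2 ± 3.56 CPM (adjusted p = 0.186 and 0.924). TLCD2, on the other side, rose from 1.78 ± 0.271 CPM to 2.85 ± 0.245 and 4.51 ± 0.334 (log2 fold changes 0.68 and 1.34). The promoter window of MIR22HG (GRCh38.p14, chr17:1716161-1716460, minus strand) shows, in capitals, 2 CCAAT boxes and 1 TGACG, the core of the cAMP response element, read on either strand.
MIR22HG promoter: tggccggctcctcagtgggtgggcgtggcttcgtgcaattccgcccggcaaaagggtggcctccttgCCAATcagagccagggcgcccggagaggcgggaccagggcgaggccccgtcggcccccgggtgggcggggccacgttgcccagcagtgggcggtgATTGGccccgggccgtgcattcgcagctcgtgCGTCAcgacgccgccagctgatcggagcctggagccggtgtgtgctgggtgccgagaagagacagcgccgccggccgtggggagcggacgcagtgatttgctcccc
Of the 35116 windows, 34.6% hold CCAAT and 24.6% hold TGACG.

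MIR31HG (ENSG00000171889) was expressed at a few CPM. It was at 4.75, 4.11 and 3.84 CPM in control libraries, at 3.18, 3.45 and 3.15 CPM with shAKR1B1 and at 5.41, 4.73 and 3.76 CPM with shSORD. The shAKR1B1 libraries were below all others, and shSORD and control overlapped. Its fall with shAKR1B1, to 77.1% of the control mean (log2 fold change -0.37, SE 0.141, adjusted p = 0.0345), lost its call with DESeq2 (adjusted p = 0.0653), with library totals as the only scaling (0.0633), with at least 10 counts asked of every library (0.0531), without control replicate 1 or 2 (0.142 and 0.0581), and without any 1 of the shAKR1B1 libraries (0.0853, 0.0558 and 0.0945 for replicates 1, 2 and 3). With shSORD the log2 fold change was 0.13 (95% interval -0.16 to 0.42, adjusted p = 0.426). It had 104 to 209 counts per library. The interferon gene IFNE lies within its span on the same strand and had 33 to 76 counts, IFNA1 on one side had none, and MTAP on the other was at 0.243 to 0.31 CPM in the group means.

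MIR17HG (ENSG00000215417) was lower still, with 35 to 97 counts per library. It was at 0.966, 1.17 and 1.81 CPM in control libraries, at 1.99, 1.46 and 2.25 CPM with shAKR1B1 and at 1.68, 1.46 and 2.33 CPM with shSORD, and all groups overlapped. Neither difference from control passed the test (log2 fold changes 0.52, 95% interval -0.0023 to 1.05, adjusted p = 0.0821, and 0.47, -0.06 to 0.99, adjusted p = 0.121). Control replicate 3 was the highest control, and without it both were called (0.84 and 0.78, adjusted p = 0.0129 and 0.0198). Without control replicate 1 they were 0.35 and 0.29 (adjusted p = 0.286 and 0.379), and without shSORD replicate 3 the shSORD value was 0.27 (adjusted p = 0.377). Without the filter on low counts both were called too (adjusted p = 0.0216 and 0.0477). With shAKR1B1 it was also called in a fit of the 2 groups alone (0.027) and without shAKR1B1 replicate 2 (0.0293) or shSORD replicate 3 (0.0427). With shSORD it was also called without shSORD replicate 2 (0.048). Apart from these and the replicate block, no alternative called it.

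The microRNA hosts did not move as 1 class. With shAKR1B1, of 19 tested 7 rose and 10 fell (their median log2 fold change was -0.28), and 4 rose and 5 fell with shSORD (median -0.08). Over all genes tested, 27.8% and 27.5% rose and 29.6% and 29.0% fell. MIR29B2CHG, host of a miR-29 pair, rose from 2.20 ± 0.249 CPM to 7.59 ± 0.17 and 7.89 ± 1.08 (log2 fold changes 1.79 and 1.85), and MIR9-1HG from 1.901 ± 0.203 to 4.59 ± 0.436 and 3.73 ± 0.253 (1.27 and 0.97). MIR100HG fell from 8.49 ± 0.482 CPM to 3.79 ± 0.0635 and 4.92 ± 1.16 (-1.17 and -0.79), and MIR1915HG from 34.7 ± 0.698 to 16.3 ± 0.224 and 24.2 ± 2.16 (-1.09 and -0.52). Of 25 genes published as targets of the microRNAs printed above, 7 rose and 10 fell with shAKR1B1 and 8 rose and 6 fell with shSORD (medians -0.06 and 0.01). TGFBI, a matrix protein induced by TGF-beta, fell with shAKR1B1 from 1430.0 ± 8.86 to 577 ± 13.7 CPM (log2 fold change -1.31) and was at 1375 ± 102 CPM with shSORD (-0.06, adjusted p = 0.391). CDKN1A, the cell cycle inhibitor p21 and a known target of the miR-17 seed, fell with shAKR1B1 (80.4 ± 4.31 to 46.1 ± 0.825 CPM, -0.80) and rose with shSORD (107 ± 8.64 CPM, 0.41), and differed between the knockdowns (adjusted p = 4.93e-09). SIRT1, a published miR-22 target, fell in both, by 0.68 and 0.73.

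UCA1 (ENSG00000214049) was at or under the floor of 3 counts in every library: 0, 1 and 1 counts in control, 1, 3 and 1 with shAKR1B1 and 2, 1 and 0 with shSORD. A count of 3 corresponds to 0.0696 to 0.0918 CPM at these depths, so no level, fold or order was read from it. Its neighbour CYP4F2, a fatty acid hydroxylase, was detected at 0.254 ± 0.07 CPM in control and rose to 0.991 ± 0.249 and 0.788 ± 0.112 CPM (log2 fold changes 1.94 and 1.61, adjusted p = 5.4e-05 and 0.000411), whereas OR10H1 on the other side was at or near 0.

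**Figure D5:**
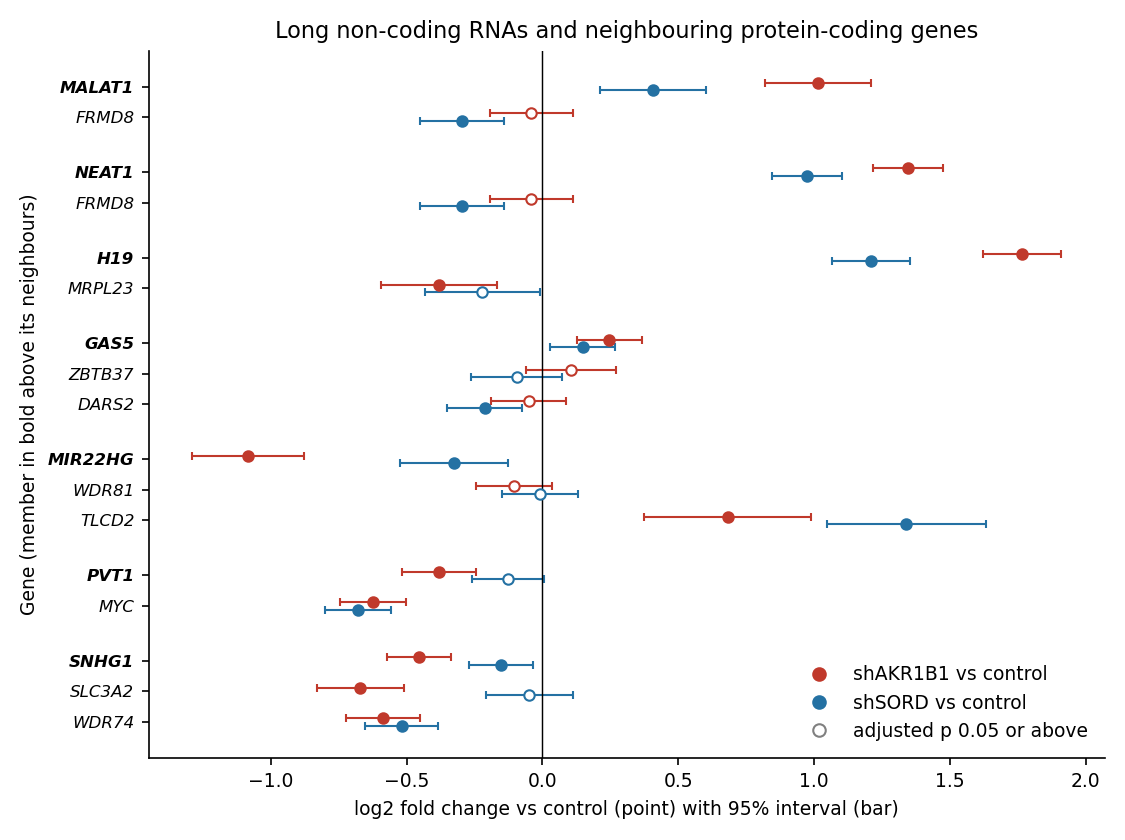
Log2 fold change against control (points) with 95% interval (bars) of 7 long non-coding RNAs (bold) and of tested protein-coding neighbours below each, with shAKR1B1 (red) and shSORD (blue). Open points have an adjusted p of 0.05 or above. FRMD8 lies at or below 0 where MALAT1 and NEAT1 lie above it, and MYC, WDR74 and SLC3A2 lie on the same side as PVT1 and SNHG1.

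The knockdowns were also compared with each other. Of the 9 tested members 7 were called, against 30.7% of all genes tested in that comparison. MALAT1, NEAT1 and H19 were higher with shAKR1B1 than with shSORD (15.5% of all genes were), and SNHG1, PVT1, MIR22HG and MIR31HG were lower (15.1% were). MALAT1 was 1.53-fold higher (log2 difference 0.61, SE 0.0907, adjusted p = 0.000118), H19 1.47-fold (0.56, SE 0.0638, adjusted p = 9.15e-06) and NEAT1 1.29-fold (0.37, SE 0.0597, adjusted p = 0.000224). MIR22HG with shAKR1B1 was at 59.1% of its shSORD level (log2 difference -0.76, adjusted p = 2.83e-05), SNHG1 at 81.1% (-0.30, adjusted p = 0.000722), PVT1 at 83.9% (-0.25, adjusted p = 0.00703) and MIR31HG at 70.4% (-0.50, adjusted p = 0.0124). For these 7 the libraries of the 2 knockdowns did not overlap, as was so for 40.1% of all genes tested. GAS5 and MIR17HG were not called (log2 differences 0.10, 95% interval -0.02 to 0.22, and 0.06, -0.44 to 0.55). The call of MIR31HG was lost without shSORD replicate 1 (adjusted p = 0.0661), and GAS5 was called without shSORD replicate 3 (0.14, adjusted p = 0.0442).

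Counts rise with the length of a transcript, so the members were ranked by CPM per kilobase of all annotated exons (GENCODE 29). In control cells SNHG1 led with 37.0 ± 0.995 CPM per kilobase, followed by GAS5 with 33.6 ± 0.69. MALAT1 (15.2 ± 1.08) and NEAT1 (13.9 ± 0.579) came next and their libraries overlapped. MIR22HG (7.91 ± 0.718) and H19 (7.62 ± 0.215) overlapped too, as did MIR31HG (5.68 ± 0.626) and PVT1 (5.18 ± 0.244), and MIR17HG (0.376 ± 0.126) was far below. With shAKR1B1 the order was GAS5 (39.8 ± 1.23), NEAT1 (35.4 ± 1.52), MALAT1 (30.7 ± 0.727), SNHG1 (27.0 ± 0.0596) and H19 (25.9 ± 0.977). SNHG1 and H19 did not overlap there by a small margin, 27.0 against 26.7 CPM per kilobase. The place of NEAT1 depends on the isoform, and over 22767 bases of exons it stands behind MALAT1 in control. Over the 3441 bases of its short transcript alone its counts would give 92.3 ± 3.83 CPM per kilobase. The other members were divided by all their annotated exons and not by 1 transcript, so that value cannot be ranked against theirs.

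For each tested member the genes with the most similar pattern were sought by Pearson correlation of log2 CPM over the 9 libraries, among 13220 genes with a mean of at least 50 counts. The 9 values share 3 group means, so a high r mostly says that the group means stand in the same order and proportion. NEAT1 was closest to FGA, the fibrinogen alpha chain (r = 0.998), and to ANKRD27. FGA went from 35.0 ± 1.38 CPM to 264 ± 31.2 and 147 ± 18.5. H19 was closest to NIT1 (r = 0.997) and to PCSK5, a proprotein convertase whose level of 12.8 ± 0.58 CPM went to 41.6 ± 1.34 and 28.2 ± 0.876. MALAT1 was closest to CAMK2D (r = 0.992), a calcium-dependent kinase with nearly the same log2 fold changes of 0.99 and 0.37, and to PDE5A. GAS5 was closest to the transcription factor gene TCF12 (r = 0.992) and to HELZ, SNHG1 to ENSG00000272327 (r = 0.993) and LPIN1, PVT1 to ZNF746 (r = 0.99) and ABTB2, and MIR22HG to MRRF (r = 0.994) and ENSG00000272327. MIR31HG (CFD, r = 0.969, and PGAP6) and MIR17HG (ZNF674, r = 0.912, and KLRG1) had looser partners.

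Other familiar long non-coding RNAs moved in both directions. Of 27 tested, 9 rose and 5 fell with shAKR1B1, and 9 rose and 6 fell with shSORD (medians 0.02 and 0.08). Over all genes tested, 27.8% and 27.5% rose and 29.6% and 29.0% fell. TINCR, a regulator of epidermal differentiation, was at 0.929 ± 0.176 CPM in control, 1.20 ± 0.0925 with shAKR1B1 (adjusted p = 0.107) and 2.52 ± 0.318 with shSORD (log2 fold change 1.44, adjusted p = 6.46e-06). DLEU2, host of miR-15a and miR-16-1, fell from 6.79 ± 0.26 CPM to 3.60 ± 1.13 and 3.32 ± 0.659 (-0.90 and -1.03).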

How the data were processed

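Per the labels' protocols, RNA of 9 A549 cultures was taken with Qiazol and miRNeasy columns, and libraries came from the TruSeq stranded mRNA kit, which selects poly(A) RNA. Per the submitters' processing notes, the tools included STAR 2.5.2b, cutadapt 1.9.1, DESeq2 1.12.3 and Subread's featureCounts 1.5.1, and the build was GRCh37. The values are the authors' deposited counts per Ensembl gene, whole numbers without normalization. Not given in the sources used here are the annotation release, the strand setting and the handling of reads with several matches.

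Symbols matched 51996 of 57905 gene IDs, and types and exon lengths came from GENCODE 29 on GRCh38. No gene coordinates on GRCh37, the build of the counts, are given. Coordinates printed for microRNAs and promoter windows are on GRCh38.p14. Of 338 entries in the companion lists, 13 matched no single ID: SNHG4, TAF15, RBM8A, CCAT1, RMRP, RPPH1, NKILA, PANDAR, HULC, HEIH, SCHLAP1, HIF1A-AS2 and PECAM1. Each list is described in the report by counts and a median. The members and lists were chosen with earlier results of these data known, the histone list and the promoter motifs last.

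Genes were tested with edgeR 4.0.16 (R 4.3.3), using TMM scaling, filterByExpr (16916 genes kept), a quasi-likelihood fit of 3 group means over 9 libraries, and Benjamini-Hochberg adjustment over all genes tested in each of 3 comparisons. A gene was called at an adjusted p under 0.05. The biological coefficient of variation was 6.59%. The SE is the absolute log2 fold change over the square root of F, and 95% intervals use the t distribution with the test's degrees of freedom. Fold changes come from the fit and percentages of control from mean CPM. The script was tested on simulated counts.

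Named genes were the members, both targets, MYC, IGF2, up to 4 called genes per list with the largest change and a mean of at least 50 counts, the 2 genes most like each member, and the nearest protein-coding genes. Of the genes this rule names, 2 are not reported here. Genes named outside that rule (SNHG32, SFTPB, PTPRC, CD3E, IFNE, GAS5-AS1) were chosen after their values were seen. In promoter windows, 6 motifs were searched on both strands: the E-box CACGTG (in 7.26% of windows), the TATA box TATAAA (in 11.5%), and the E2F, CCAAT, cAMP response and antioxidant response motifs spelled out in the report, of which the last can contain the one before it.

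Replicate numbers were checked for pairing by correlating deviations from group means over genes. Same-numbered control and knockdown libraries gave r between -0.03 and 0.03. Same-numbered shAKR1B1 and shSORD libraries gave 0.102, 0.193 and 0.144, and differently numbered ones gave -0.175 to 0.0322. Values this small do not settle whether the numbers pair these groups, and blocked fits were run as alternatives. Alternatives were RLE scaling, library totals, other filters, DESeq2 1.42.0, 2-group fits, the replicate block and leaving out each library.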

Additional observations from a re-analysis of the deposited data

How the results depend on the processing

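In the 3 comparisons, the counts of all genes and of members called stayed within 1.5 times the reported ones under every alternative run. With shAKR1B1 8750 to 11094 genes and 7 to 9 members were called (8481 to 10712 and 7 to 9 when leaving out 1 library), with shSORD 8672 to 9817 and 5 to 7 (8383 to 10127 and 4 to 6), and between the knockdowns 4121 to 5650 and 7 (3840 to 6731 and 6 to 8). Of the refitted member fold changes, 408 kept their side of the threshold, 22 lost the call, 11 gained it and 0 changed direction with a call. The calls of MALAT1, NEAT1 and H19 held under every alternative in all 3 comparisons, with log2 fold changes of 0.95 to 1.07, 1.31 to 1.39 and 1.74 to 1.81 with shAKR1B1 and 0.32 to 0.53, 0.92 to 1.04 and 1.15 to 1.27 with shSORD. The calls of GAS5, SNHG1, PVT1 and MIR22HG with shAKR1B1 held too. The replicate block called 9994, 9817 and 5643 genes in the 3 comparisons. It called 5650 in the fit of the knockdown groups alone, where the same 7 members were called. Against control, where same-numbered libraries showed no likeness, the block called MIR17HG (0.53 with shAKR1B1, adjusted p = 0.0177, and 0.47 with shSORD, adjusted p = 0.0307) and changed no other member's call. Scaling by library totals moved the median of all genes by 0.04 and 0.07 against control. The depth limits UCA1, and MIR17HG and MIR31HG rest on the fewest counts of the tested members.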
